A study of Homo sapiens with 6 samples.

Results

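All 6 chromatin accessibility libraries of the series were used to compare the 4 made from fixed, stained and sorted GM12878 cells with the 2 made from live, unsorted cells of the same line. GM12878 is a B lymphoblastoid cell line, that is, B lymphocytes immortalised with Epstein-Barr virus. Titles gave the groups: the high group (2 libraries, strong H3K27ac staining), the low group (2 libraries, weak staining) and the live control (2 libraries). Summits on chromosomes 1 to 22 lying less than 1000 bp apart were chained, over all libraries together, into 86172 regions. Of these, 36380 were among the 23621 best-scoring regions of at least 1 library and 14484 among those of all 6.

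Per the labels' protocols, cells for sorting received a viability dye, were fixed with paraformaldehyde, permeabilised, incubated with an antibody to the mark (written H3K37ac in that protocol and H3K27ac elsewhere) and a FITC-labelled second antibody, and were gated on size and viability before high and low stainers were collected. All groups, the control included, were low-passage cells of 1 line, split into replicates of equal cell number and transposed with Tn5 in a digitonin and NP40 buffer. Sorted samples then had their crosslinks reversed overnight, whereas fresh control cells had their DNA purified right after transposition. Fixation, permeabilisation, staining, sorting and reversal therefore all differ together between sorted and live samples and cannot be told apart. Nothing says that replicates came from separate cultures, so p-values measure only the spread between these samples, which may be technical.

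InTAC-seq is ATAC-seq adapted to fixed, antibody-stained cells. In both, the transposase Tn5 cuts and tags DNA where nucleosomes are absent, chiefly at promoters, enhancers and insulators, and a peak summit marks the base of greatest cutting. Formaldehyde ties proteins to DNA and to each other, and acetylation of histone H3 at lysine 27 marks active promoters and enhancers. Factors such as CREB, NRF1, the E-box proteins, ETS proteins and NFY bind short sequences just before gene starts, many of them rich in CG pairs.

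Within each library, regions were put in order of their top score, rank 1 being the best. A region is called higher in the sorted libraries when each of the 4 ranked it above both live libraries, and higher in live when both live libraries ranked it above all 4. A region outside the best 23621 took the place just below them. Ranks are relative within a list and say nothing of the total amount of open DNA. Comparisons of 4 libraries with 2 used an exact permutation test over the 15 ways to choose 2 of 6, whose smallest p is 0.0667, so no single comparison here could pass 0.05.

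Chosen sequences illustrate one of the differences. The stretches printed here are the 200 bases before the annotated start of 5 genes, read on the gene's strand from RefSeq promoters (GRCh38.p14). For each motif that separated the groups, the promoter with the widest rank gap that held it, lay outside every annotated gene and overlapped the called region was taken, and capitals mark the motif on either strand. The first 3 ranked higher in the sorted libraries, with a CREB motif in ATP5ME (chr4:674277-674476, minus strand), an NRF1 motif in DDX10 (chr11:108664869-108665068, plus strand) and an E-box in CLK4 (chr5:178627051-178627250, minus strand). The last 2 ranked higher in live, with an ETS motif read on the opposite strand in ZNF419 (chr19:57487550-57487749, plus strand) and an NFY motif in ZNF625 (chr19:12156735-12156934, minus strand).
ATP5ME: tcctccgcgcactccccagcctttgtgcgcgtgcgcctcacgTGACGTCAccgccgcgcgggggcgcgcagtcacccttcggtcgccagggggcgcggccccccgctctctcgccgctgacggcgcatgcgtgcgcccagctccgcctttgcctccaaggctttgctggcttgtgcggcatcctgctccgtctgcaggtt
DDX10: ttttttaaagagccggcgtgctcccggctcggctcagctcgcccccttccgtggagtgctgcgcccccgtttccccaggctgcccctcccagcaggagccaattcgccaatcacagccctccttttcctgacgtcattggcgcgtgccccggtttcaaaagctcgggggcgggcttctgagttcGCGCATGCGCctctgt
CLK4: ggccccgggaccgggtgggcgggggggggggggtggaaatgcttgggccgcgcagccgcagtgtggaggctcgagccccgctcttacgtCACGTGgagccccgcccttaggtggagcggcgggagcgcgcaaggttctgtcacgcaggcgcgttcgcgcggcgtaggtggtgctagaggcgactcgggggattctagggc
ZNF419: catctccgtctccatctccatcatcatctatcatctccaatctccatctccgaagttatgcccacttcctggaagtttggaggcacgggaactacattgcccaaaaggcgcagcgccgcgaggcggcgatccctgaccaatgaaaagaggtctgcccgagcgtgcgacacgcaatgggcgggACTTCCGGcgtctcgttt
ZNF625: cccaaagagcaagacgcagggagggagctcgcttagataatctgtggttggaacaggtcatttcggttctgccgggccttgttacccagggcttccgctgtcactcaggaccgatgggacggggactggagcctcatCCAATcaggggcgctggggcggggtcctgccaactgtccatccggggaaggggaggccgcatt
Only the motif each stretch was chosen for is in capitals. ATP5ME also holds an E-box, DDX10 also a CREB motif and 3 NFY motifs, and ZNF419 also 2 NFY motifs, so a motif that leaned to live can stand in a promoter that ranked higher in sorted. The first 3 stretches held 64.5% to 73% G or C and 18 to 27 CG pairs, and the 2 zinc finger promoters 57% and 62% with 17 and 11. These values describe the 5 chosen stretches alone.

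ATP5ME, which encodes a subunit of mitochondrial ATP synthase, ranked 3419 and 3218 among high, 2029 and 2199 among low and 18072 and 12226 among live libraries. The region at the start of CLK4, a kinase that phosphorylates splicing factors, ranked 4705 and 10938 (high), 4357 and 6633 (low) and 21757 and 21390 (live). DDX10, an RNA helicase gene, ranked 604, 996, 719 and 1333 in the sorted and 5871 and 5233 in the live libraries. These 3 starts were chosen for their gap, so the distance between their sorted and live ranks follows from the choice. ZNF419, the gene of a zinc finger protein, ranked 6395 and 12104 in live and 20036 in high replicate 2, and was outside the best regions of the other 3 sorted libraries. At ZNF625 the live ranks were 13550 and 11831, and no sorted library had it among its best regions.

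The lists differed in length, and 1 library stood apart. The live lists held 70100 and 72476 summits, the high lists 25754 and 46708 and the low lists 41980 and 51944. No read numbers were given, so depth is unknown, and the common length of 23621 regions is the whole list of high replicate 1. That library shared 17348 to 18268 of its best regions with each of the others, whereas the other pairs shared 18949 to 20063. Main results that it moved are therefore given without it too. Gene ends were then checked for markers of the line. Of 8 B cell markers, 3 (MS4A1, CD79B and EBF1) had a best region at an end in all 6 libraries and 4 or 5 had one in each library. A best region in all 6 libraries was found at 1 of 6 T and NK markers, 0 of 6 myeloid markers and 0 of 4 erythroid markers.

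The sites themselves were largely common to both preparations. The 2 live libraries shared 20063 of their best regions (84.9%), pairs of sorted libraries 17824 to 20007, and pairs across the groups 17348 to 19353. Libraries of the same group shared 19057 on average and libraries of different groups 18704, a difference of 354 regions (exact permutation test, two-sided, p = 0.8). In shorter lists of equal length the excess within groups was 422 with 11810 and 423 with 10000 best regions. Each had the smallest possible p (exact permutation test, p = 0.0667). Without high replicate 1 the difference was 706 (exact p = 0.1, the smallest that 3 against 2 allow), and with full lists it turned to -3490.

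Few regions were exclusive to one preparation. Those in the best list of all 4 sorted and neither live library numbered 474 (1.30% of 36380), and those in both live and no sorted best list 692 (1.90%). Nearly all of them were called further down the other group's lists. Only 3 of the 474 had no summit in either full live list, and 29 of the 692 had none in any full sorted list. The live lists were the longest, so absence from them was the stricter condition. The counts of 474 and 692 also rest on unlike conditions, presence in 4 best lists and in 2. With 2 libraries against 2, sorted-only and live-only regions numbered 1391 and 1321 for the low libraries, and 1285 and 1604 for the high. Leaving out single libraries raised the 2 counts to 638 to 963 and 889 to 1921, both highest without live replicate 2; without high replicate 1 the first was 791.

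The 3 sites without any live summit, named after their values were seen, lay at BRD10, NFE2L2 and CBLB. BRD10 encodes a bromodomain protein, and its site (chr9:6008510-6008564, hg38), 47 bp from a gene end, ranked 5432, 2946, 2783 and 4430 in the 4 sorted libraries. NFE2L2 encodes NRF2, the transcription factor of the response to oxidants, and its site at chr2:177264768-177264778, 45 bp from an end, ranked 9546, 9445, 7935 and 8597. The site at CBLB, a ubiquitin ligase that restrains lymphocyte receptors, lay at chr3:105866800-105866958, 2545 bp from an end, and ranked 15706, 16512, 19914 and 18129. At each site the 4 sorted ranks lay close together, high in the lists at BRD10 and low at CBLB. None of the 29 live counterparts lay at a gene end. They lay 1873 bp or more from one, as at DYNC1H1, the dynein heavy chain (ranks 7885 and 12484 in live, 6829 bp away), and EAPP, an E2F-associated phosphoprotein (ranks 10284 and 12074, 8269 bp away), again chosen after their values were seen.

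The share of sites at gene ends did not set sorted apart from live libraries. Among the best 23621 regions, 31.4% and 33.5% (high), 35.2% and 35.1% (low) and 34.7% and 34.5% (live) lay within 1 kb of either end of a protein-coding gene. The live values lay between those of the 2 sorted groups. The sorted mean was 33.8% ± 1.77 (SD, n = 4) and the live mean 34.6% ± 0.114 (SD, n = 2), a difference of -0.782 points (exact permutation test, p = 0.733). By Wilson 95% intervals, whose width reflects counting error alone, the sorted shares lay between 30.8% and 35.8% and the live shares between 33.9% and 35.3%. Without high replicate 1 the difference turned to 0.0141 points.

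Towards the top of the lists the low libraries parted from the others. Of the best 1000 regions, 70.3% and 77.6% (high), 85.8% and 86.3% (low) and 72.3% and 74.2% (live) lay at gene ends. Both low libraries were above the control there, while the high libraries fell on either side of it. At 2500 regions the shares were 62.1%, 69.8%, 80.6% and 79.7% against 68.4% and 68%. The mean over sorted libraries rose above the control at these lengths, by 6.75 and 4.86 points (exact p = 0.267 and 0.467), but that mean joins groups that did not move together. With full lists of unequal length the shares were 31.4%, 22.8%, 24.5% and 21.2% against 17.2% and 16.7%.

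**Figure D1:**
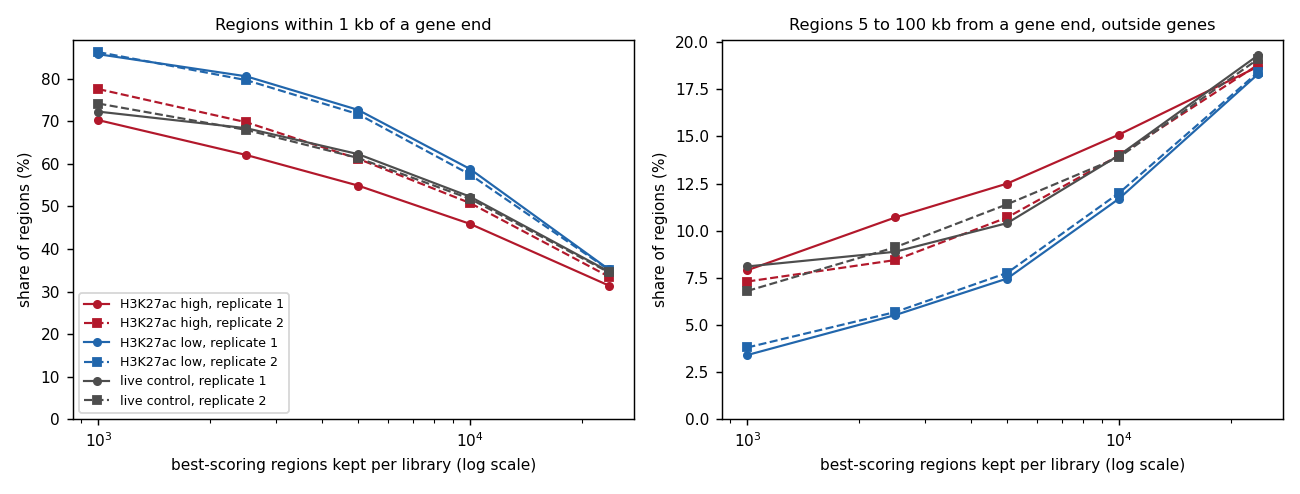
Share of regions (%) within 1 kb of a gene end, left, and 5 to 100 kb from an end outside genes, right, against the number of best-scoring regions kept per library (log scale). Each line is 1 library. The low libraries reach 85.8% and 86.3% at gene ends among the best 1000 regions, and all libraries come together, between 31.4% and 35.2%, at 23621.

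Sites between genes took a slightly smaller share of the sorted lists at the common length of 23621 regions. Regions 5 to 100 kb from an end and outside genes made up 18.7%, 18.8%, 18.3% and 18.4% of the sorted and 19.3% and 19.1% of the live best lists. All 4 sorted values lay below both live ones, by 0.63 points on average (exact permutation test, p = 0.0667, adjusted over 5 places 0.333). In shorter lists the groups overlapped. Of the best 10000 regions the shares were 15.1%, 14%, 11.7% and 12% against 14% and 13.9% (exact permutation test, p = 0.733). The share 1 to 5 kb from an end separated the groups at 10000 regions. It was 6.93%, 6.92%, 6.66% and 6.77% in the sorted and 6.59% and 6.32% in the live lists (exact permutation test, p = 0.0667, adjusted over 5 places 0.333). All 4 sorted values also lay above both live ones at 5000 regions, but not at 2500. At the common length this and the other places overlapped between groups. Regions 1 to 5 kb from an end took 8.07% to 8.98% of the sorted and 8.79% and 8.69% of the live lists, regions inside genes over 5 kb from an end 29.6% to 30.9% and 29.7% and 30.1%, and regions over 100 kb from any gene 7.55% to 10.9% and 7.59% and 7.64%. High replicate 1 held the 10.9%, and the next highest sorted value was 8.6%. Without it the gap between genes was -0.69 points (exact permutation test, p = 0.2).

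Rank order separated the groups more often than the place shares did, and differently by place. Of the 36380 regions, 3275 (9.0%) were higher in sorted and 4288 (11.8%) higher in live. At gene ends 15.9% of 9205 regions were higher in sorted and 15.3% higher in live, close to equal. Inside genes, over 5 kb from an end, the shares were 5.99% and 10.8% of 12236, and 5 to 100 kb outside genes 6.59% and 11.9% of 7674. Away from gene ends more regions were therefore called higher in live. At 1 to 5 kb from an end the shares were 9.4% and 11%, and over 100 kb from any gene 6.47% and 7.01%. A call higher in sorted needed the region in every sorted best list, and a call higher in live only in the live ones. Among the 14484 regions in the best list of all 6 libraries, 16.4% were higher in sorted and 15.0% higher in live. The counts were 7071 and 7108 with the low libraries alone, and 6322 and 6942 with the high alone. Calls away from gene ends were not counted in these settings, so the part of the unlike conditions in the lean was not tested.

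**Figure D2:**
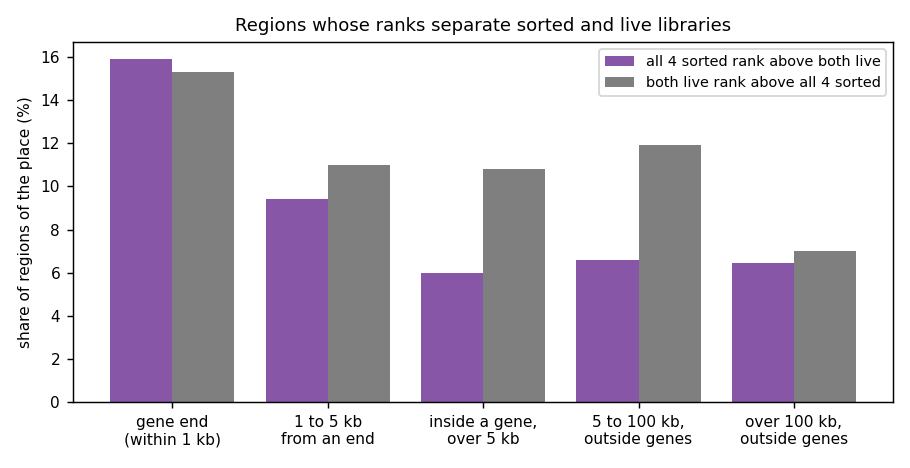
Share (%) of the regions of each place that all 4 sorted libraries ranked above both live libraries (purple) or that both live libraries ranked above all 4 sorted (grey). The 2 bars are 15.9% and 15.3% at gene ends, and 5.99% and 10.8% inside genes.

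The regions higher in sorted lay at gene ends in 44.8% of cases and those higher in live in 32.9%, with median distances to a gene end of 2531 and 9092 bp. That difference of 11.9 points was not shared by the high libraries. Called with the low libraries alone against the control it was 18.4 points, and with the high libraries alone it turned to -10.8 points. Both comparisons share the 2 live libraries. It was 4.39 points without low replicate 1, 4.96 without low replicate 2 and 16.1 without high replicate 1.

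Away from gene ends, live-favoured regions lay among more genes. The median number of protein-coding genes within 500 kb was 9 for those higher in live and 6 for those higher in sorted, and 10 and 6 for the live-only and sorted-only regions. For whole best lists it was 6, 7, 7 and 8 in the sorted and 8 in both live libraries (exact permutation test, p = 0.333), so the libraries themselves overlapped.

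Among single sites at gene ends, the widest gaps in favour of the sorted libraries were at BRD10, CHST12, PLEKHF2, SH2B3, AXIN1, POLR2J, GALNS and FBRSL1. SH2B3 encodes the adaptor LNK, a brake on cytokine signalling, and its site (chr12:111405607-111405644), inside the gene and 891 bp from an end, ranked 1522 and 1817 (high), 625 and 1205 (low) and 20833 and 17156 (live). AXIN1, a scaffold of the complex that degrades beta-catenin, had its site at chr16:352882-353026 ranked 3604, 2064, 1325 and 1415 against 18986 and 18878. PLEKHF2, which encodes an endosomal protein, ranked 1618, 1024, 1011 and 1231 against 20136 and 17071 (chr8:95133698-95133892). Sites near the top of every sorted list thus stood at least 15274 places further down in both live ones, for these 3 sites. POLR2J, a subunit of RNA polymerase II, ranked 5758 to 8615 in the sorted and 34316 and 36211 in the full live lists, and CHST12, a sulfotransferase of chondroitin, 2701 to 7729 and 42016 and 27061. The site of GALNS, a lysosomal sulfatase, ranked 1592 to 5377 and 20305 and 20327, and lay inside the neighbouring gene TRAPPC2L. FBRSL1 ranked 4331 to 6816 and 21706 and 26993.

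Away from gene ends, the widest sorted-favoured gaps were at or near CDKN1A, XRCC5, EMB, HNRNPH1, FRG2B, S1PR1, GRIN1 and ZFPM1. CDKN1A encodes p21, an inhibitor of cyclin-dependent kinases that p53 induces, and its site (chr6:36680494-36680536) lay inside the gene 4050 bp from an end. It ranked 5954 and 3853 (high), 6103 and 6196 (low) and 22446 and 25312 (live). XRCC5 encodes the Ku80 protein that binds broken DNA ends, and a site inside it (chr2:216114890-216114902) ranked 4242, 7455, 4362 and 5092 against 24624 and 28838. Both sites were chosen for their gap, so the distance between their sorted and live ranks follows from the choice. The region 51463 bp from S1PR1, the receptor that guides lymphocytes out of lymphoid organs, ranked 2866, 11045, 8148 and 11231 against 44164 and 36191. HNRNPH1, a splicing factor gene, ranked 2084 to 4668 and 18797 and 17949, and ZFPM1, a cofactor of GATA proteins, 1508 to 2955 and 17701 and 14636. EMB, FRG2B, a member of a multicopy family, and GRIN1 completed this set, with sorted ranks of 1507 to 11866 and live ranks of 23753 to 39726.

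The widest gaps in favour of live cells at gene ends were at GSTM1, NOD1, SLFN12, ZC3HAV1L, URGCP-MRPS24, ZNF544, ZNF625 and ZNF197. GSTM1, a glutathione transferase that detoxifies electrophiles, ranked 8317 and 6041 in live and 23221, 23682 and 27285 in 3 sorted libraries, and was absent from high replicate 1 (chr1:109687719-109687828). It belongs to a family of closely similar genes, and how the authors treated reads with several matches is not given in the sources used here. NOD1, a sensor of bacterial cell walls, ranked 5382 and 5923 in live and 21733, 17285, 26679 and 21879 in the sorted libraries (chr7:30478661-30479455). SLFN12 ranked 8309 and 8031 in live and 19444 to 23711 in 3 sorted libraries. ZC3HAV1L ranked 6938 and 9773 and 20604 to 29727 in the same way, and URGCP-MRPS24, a read-through locus, 12104 and 10083 and 22550 to 28133. SLFN12, ZC3HAV1L and URGCP-MRPS24 were all absent from high replicate 1. Among the zinc finger genes, ZNF544 ranked 10121 and 9381 in live and 20354 to 29062 in the sorted libraries, and ZNF197 8987 and 9491 in live and 19306 to 22706 in 3 sorted libraries.

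Live-favoured sites elsewhere were at or near SFXN1, DCTN5, TRA2B, UBE2Q2, RPTOR, SRR, EEIG2 and ACIN1. SFXN1 encodes a mitochondrial serine carrier, and the site 4561 bp from it (chr5:175534271-175534341) ranked 5944 and 9760 in live and 31723 in low replicate 1, and was absent from the other 3 sorted libraries. Inside DCTN5, a dynactin subunit, a site (chr16:23670255-23670322) ranked 4297 and 3669 in live and 17817, 17847, 17333 and 19933 in the sorted libraries. RPTOR encodes the raptor subunit of mTORC1, and a site deep within it (chr17:80605554-80605894) ranked 6325 and 3370 against 20607, 18787, 23368 and 19694. These 3 sites were chosen for their gap, so their better ranks in both live libraries follow from the choice. The others had live ranks of 4483 to 11377 and sorted ranks from 17873 on, TRA2B, UBE2Q2, EEIG2 and ACIN1 being absent from high replicate 1 and EEIG2 from low replicate 1 too. The site named for SRR lay inside SMG6.

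Gene by gene, 10357 of 19122 protein-coding genes had a best region at an end in at least 1 library. Of these, 1730 (16.7%) were higher in sorted and 1575 (15.2%) higher in live, judged by the gene's best region. Counts for the lists of genes that follow are to be read against these 2 shares, and carry no test. Leaving out high replicate 1 raised the count higher in sorted to 2628 and that higher in live to 1829, since fewer libraries had to agree. The median rank over all open genes was 9209 and 7858 (high), 6176 and 6390 (low) and 7546 and 7834 (live), so the low lists held gene ends nearer their top.

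The p53 and DNA damage targets leaned to the sorted libraries. Of 16 genes listed, 13 were open at an end somewhere (12 or 13 in each library), 8 of them (61.5%) were higher in sorted and 2 (15.4%) higher in live. The median rank of the 13 was 2952 and 3496 (high), 3655 and 2894 (low) and 4139 and 5358 (live). DDB2, which recognises ultraviolet damage, ranked 2952, 3998, 4398 and 3673 in the sorted and 9805 and 8652 in the live libraries. MDM2, the ubiquitin ligase that p53 induces against itself, ranked 1127, 1058, 934 and 887 against 4139 and 3382. SESN1, a stress-induced inhibitor of mTORC1, ranked 1847, 1226, 1682 and 1148 against 3801 and 5164. These 3 were named for the widest gaps among the 8. The narrowest call was GADD45A, also 1 of the 8, by 11 places (57 to 422 in the sorted and 604 and 433 in the live libraries). The 2 that went the other way had gaps of 125 and 107 places. SESN2 ranked 2894 to 10366 in the sorted and 2769 and 1908 in the live libraries, and TP53I3 494 to 866 and 387 and 183. Over all alternatives the count higher in sorted ran from 7 to 9. CDKN1A is not among the 13, because its site lay outside the gene-end window.

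Heat shock and chaperone genes leaned the same way. Of 16 listed, 15 were open, 7 (46.7%) were higher in sorted and 0 higher in live. HSP90AB1, a form of the chaperone HSP90, ranked 8590, 7381, 4460 and 5705 against 12839 and 11719. HSPA8, the constitutive HSP70, ranked 291, 392, 341 and 268 against 1601 and 1539. HSPA9, the mitochondrial HSP70, ranked 696, 1379, 1891 and 1520 against 3767 and 6004. These genes were named for the widest gaps among the 7. The 7 include HSPD1 and HSPE1, which share a region, so they rest on 6 sites. The heat-inducible HSPA1B was not among them, with ranks of 2306 to 5535 in the sorted and 1823 and 2467 in the live libraries. Over the alternatives the count ran from 6 to 10, and 2 members were higher in live with the high libraries alone or without low replicate 1, and 1 without live replicate 2.

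A list of 14 genes covered CTCF and cohesin, which fold chromosomes into loops, and also held YY1 and ZNF143. Of the 14, 6 (42.9%) were higher in sorted, ZNF143 among them, and 2 higher in live. RAD21, the cleavable cohesin subunit, ranked 266 and 525 (high), 1558 and 3192 (low) and 6799 and 9853 (live). STAG1, another subunit, ranked 676 to 1088 against 4656 and 2051, and PDS5B, a cohesin regulator, 1692 to 2468 against 3349 and 4706. These 3 were named for the widest gaps among the members called higher in sorted. ESCO2, which acetylates cohesin, was called higher in live. It ranked 10402 and 11363 in live and 15794 to 21095 or not at all in the sorted libraries. MAU2, part of the cohesin loader, ranked 4403 and 4055 in live and 5457 to 14750 in the sorted libraries. Over the alternatives the count higher in sorted ran from 6 to 9.

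Zinc finger genes of chromosome 19 leaned the other way. Of 30 listed, 25 were open, 11 (44%) were higher in live and 0 higher in sorted. These genes encode DNA-binding repressors, many of them directed at retroelements, and lie in clusters of similar copies, whose reads can match several places. ZNF100 ranked 2347 and 4558 in live and 19881, 8531, 7959 and 11686 in the sorted libraries. ZNF585A ranked 3578 and 4823 in live and 7973, 12236, 8273 and 9595 in the sorted libraries, and ZNF544 has been given already. These genes were named for the widest gaps among the called members, so their lower place in every sorted library follows from the choice. The median rank over the 25 was 15229, 11847, 8273 and 9595 in the sorted and 7464 and 4581 in the live libraries. The count higher in live ran from 8 (best 10000 regions) to 18 (high libraries alone), was 17 without either live library, and 1 member was higher in sorted when either live library was left out.

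**Figure D3:**
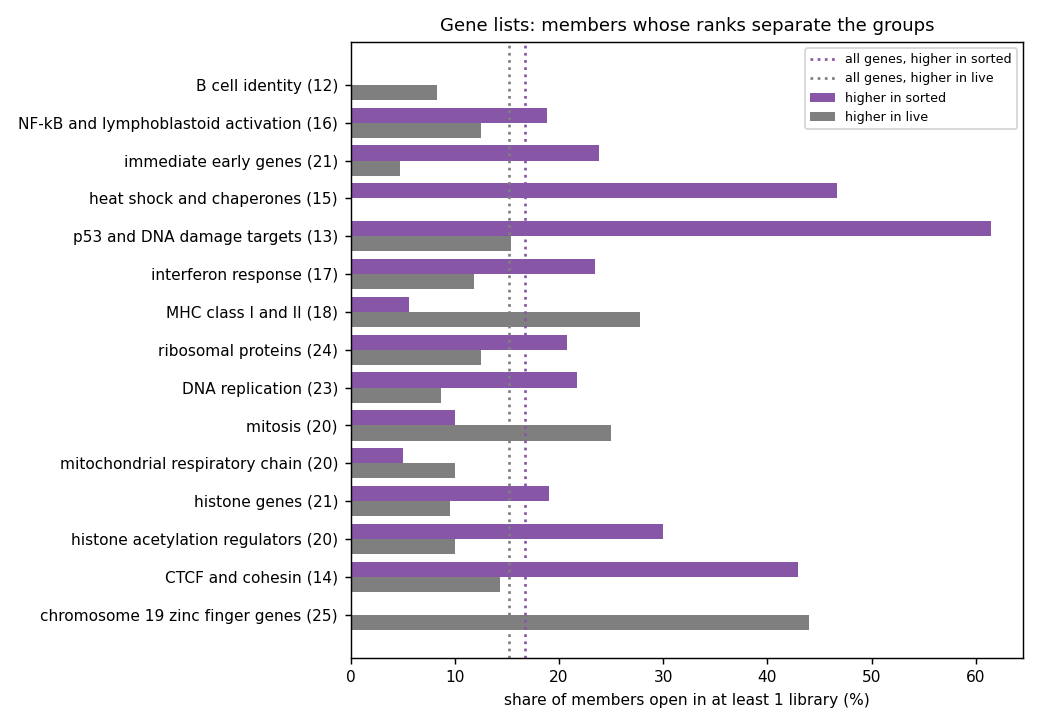
Share (%) of the members of each gene list, of those open at an end in at least 1 library (number in brackets), that ranked higher in sorted (purple) or in live (grey). Dotted lines are the shares over all 10357 open genes, 16.7% and 15.2%. The p53 targets reach 61.5%, the heat shock genes 46.7% and, on the live side, the chromosome 19 zinc finger genes 44%.

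Immediate early genes, which respond within minutes to stimuli, were higher in sorted for 5 of 21 (23.8%) and higher in live for 1. The first count was 9 without live replicate 1, and with the high libraries alone 5 were on each side. JUND ranked 5725, 7898, 5218 and 4457 against 12884 and 12238, KLF6 1794 to 4303 against 8178 and 10672, and BTG2 2873 to 4537 against 6254 and 6292. MYC went the other way, at 11509 to 16447 in the sorted and 7018 and 8484 in the live libraries. Regulators of histone acetylation, the mark used for the sort, were higher in sorted for 6 of 20 (30%), a count that ran from 3 to 13 over the alternatives, and higher in live for 2. BRD3, a reader of acetyl marks, ranked 8276 to 11039 against 17299 and 15772, HDAC2, a deacetylase, 1919 to 2657 against 6994 and 6938, and EP300, the acetyltransferase that writes H3K27ac, 2424 to 4843 against 7684 and 13493. KAT2A, another acetyltransferase, ranked 6865 and 8811 in live and 14464 to 17570 or not at all in the sorted libraries, and HDAC1 2186 and 1973 against 2443 to 5025.

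Genes of antigen presentation and of mitosis were found on both sides. Of 18 open MHC genes, 5 (27.8%) were higher in live and 1 higher in sorted, and without high replicate 1 the counts were 6 and 3. HLA-DPB1, a class II chain, ranked 4951 and 6811 in live and 13081 to 15628 or not at all in the sorted libraries. HLA-DMA, which loads class II with peptide, ranked 1748 and 461 in live and 12690, 8973, 8587 and 4181 in the sorted libraries. HLA-DMB, its partner, ranked 11696 and 11610 in live and 12793 to 19154 or not at all in the sorted libraries. CD74, the invariant chain that escorts class II, did the reverse, at 501, 1279, 1476 and 3369 in the sorted and 4777 and 4892 in the live libraries. Of 20 mitotic genes, 5 (25%) were higher in live and 2 higher in sorted, counts that rose to 10 for live with the high libraries alone and to 8 for sorted with the low libraries alone. CCNB2, a cyclin of mitosis, ranked 1447 and 1798 in live and 4699 to 10672 in the sorted libraries, CDC20, an activator of anaphase, 585 and 566 against 2101 to 4056, and KIF23 4588 and 6172 against 6574 to 16913. The motor gene KIF11 ranked 2720 to 5351 in the sorted and 11880 and 15527 in the live libraries, and MAD2L1, a checkpoint gene, 347 to 785 against 2354 and 2793.

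The remaining lists of expressed pathways are given by their counts. Genes of NF-kB and lymphoblastoid activation were higher in sorted for 3 of 16 and higher in live for 2, those of the interferon response for 4 and 2 of 17, ribosomal proteins for 5 and 3 of 24, DNA replication for 5 and 2 of 23, histone genes for 4 and 2 of 21, and the mitochondrial respiratory chain for 1 and 2 of 20. These small counts moved with single libraries: without live replicate 2, interferon genes higher in live numbered 6, replication genes higher in live 5 and respiratory chain genes higher in sorted 4, and without live replicate 1, histone genes higher in sorted numbered 8. TNFAIP3, which shuts off NF-kB, ranked 1018 to 3785 in the sorted and 6573 and 8784 in the live libraries. CD40, the receptor that activates it in B cells, ranked 17129 to 20897 or not at all and 11488 and 12471. Within one pathway, genes thus lay on both sides. BIRC3 and REL were higher in sorted and ICAM1 higher in live, and without high replicate 1 the count of this list higher in sorted rose from 3 to 7. IRF1 and IRF9 were higher in sorted, with IRF1, a transcription factor of the interferon response, at 2945 to 3637 against 7062 and 7157. RSAD2, an antiviral effector, ranked 8378 and 8106 in live and 12982 to 18678 in the sorted libraries.

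POLD1, the catalytic subunit of DNA polymerase delta, ranked 680 to 3418 in the sorted and 11387 and 8945 in the live libraries. SDHA, a subunit of succinate dehydrogenase, ranked 3325 to 6143 against 17620 and 21911, and its partner SDHC 10517 to 19082 against 6041 and 8883. These 2 subunits of 1 complex lay on opposite sides. Genes of B cell identity seldom separated the groups: of 20 listed, 12 were open, 0 were higher in sorted and 1 higher in live, and with high replicate 1 left out 1 and 1. The 1 was BANK1, a B cell scaffold, at 4795 and 4766 in live and 6991 to 14069 in the sorted libraries. Genes of other lineages were mostly closed at their ends, with 6 of 20 T and NK markers, 1 of 18 myeloid markers and none of 15 erythroid and megakaryocyte markers open in any library. Neural developmental genes (6 of 18 open) and olfactory receptors (1 of 18) had none that separated the groups.

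Within the promoters themselves, 15100 genes (79%) matched a RefSeq promoter of 250 bases before to 50 after the start, and 8454 had a best region within 1 kb of the start in at least 1 library. Of these, 1429 (16.9%) were higher in sorted and 1310 (15.5%) higher in live. The sorted-favoured promoters were richer in GC, at 66.6% ± 8.82 (SD over promoters) against 63.5% ± 7.95, and held 29.9 ± 10.5 CG pairs against 24.2 ± 9.43. Open promoters as a whole held 65.2% and 27.4. A start on the opposite strand within 1 kb upstream, a divergent promoter, was present for 36.5% of sorted-favoured and 27.6% of live-favoured promoters, and for 30.6% of open ones.

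With all promoters divided by GC content into 4 bands of like size, the balance turned from one side to the other. In the second band (54.3% to 63% GC), 14.9% of open promoters were higher in sorted and 20.6% higher in live. In the richest band (70.7% to 94%), the shares were 20.3% and 9.83%. The lowest band gave 13.7% and 16.5% and the third 16.6% and 16.2%. Among promoters open in all 6 libraries, the median rank of the richest band was 7505 and 5792 (high), 4345 and 4455 (low) and 6791 and 6858 (live). Of the sorted libraries, 3 ranked these promoters above the control and high replicate 1 ranked them below. The difference of means was -1300 ranks (exact permutation test, p = 0.333), and -1959 without high replicate 1 (exact p = 0.2). These median ranks were not among the planned measures. The mean GC content of all open promoters differed by 0.0237 points between groups (65.2% in each, exact permutation test, p = 1).

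Motifs of 5 factor families separated the groups at the top of the promoter lists. Each was searched by its letters on both strands, and the share of promoters holding it was taken among the 2500 best-ranked promoters of each library, a measure chosen with the data already seen. CREB sites (TGACGTCA, in 2.65% of all promoters) occurred in 4.68% and 4.4% (high), 4.32% and 4.2% (low) and 3.4% and 3.6% (live). NRF1 sites (the capitals of DDX10, 1.77% of all) occurred in 3.08%, 3.12%, 3.24% and 3.28% against 2.52% and 2.72%. The E-box (CACGTG, 8.77% of all) occurred in 11.9%, 11.8%, 12.2% and 11.6% against 10.1% and 10.3%. For these 3, every sorted library lay above both live libraries. ETS sites (CCGGAAGT, 6.3% of all) occurred in 10.4%, 10.8%, 10.4% and 10.5% of the sorted and 13.1% of both live sets. NFY sites (CCAAT, 36% of all) occurred in 51.6%, 52.4%, 54.9% and 53.7% against 57.4% and 57.9%. For these 2, every sorted library lay below.

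The mean differences were 0.9 points for CREB, 0.56 for NRF1, 1.66 for the E-box, -2.53 for ETS and -4.48 for NFY, each with an exact permutation p = 0.0667 (two-sided), or 0.173 adjusted over 13 motifs. With the 5000 best promoters they kept their direction at 0.65, 0.45, 0.605, -1.02 and -1.24 points. Leaving out any 1 library kept all 5 directions. The SP/KLF box (GGGCGG, 58.9% of all) overlapped between groups, at 76.6%, 78.4%, 80.8% and 80.8% against 77.2% and 77.6% (exact p = 0.267). So did the TATA box (TATAAA), ZNF143, YY1, GFY, AP-1 (TGACTCA), NF-kB and the octamer (ATGCAAAT), in 9.71%, 0.377%, 1.41%, 0.808%, 3.66%, 0.199% and 1.69% of all promoters. No string searched contains another, and a match is a description of the letters, not of binding.

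**Figure D4:**
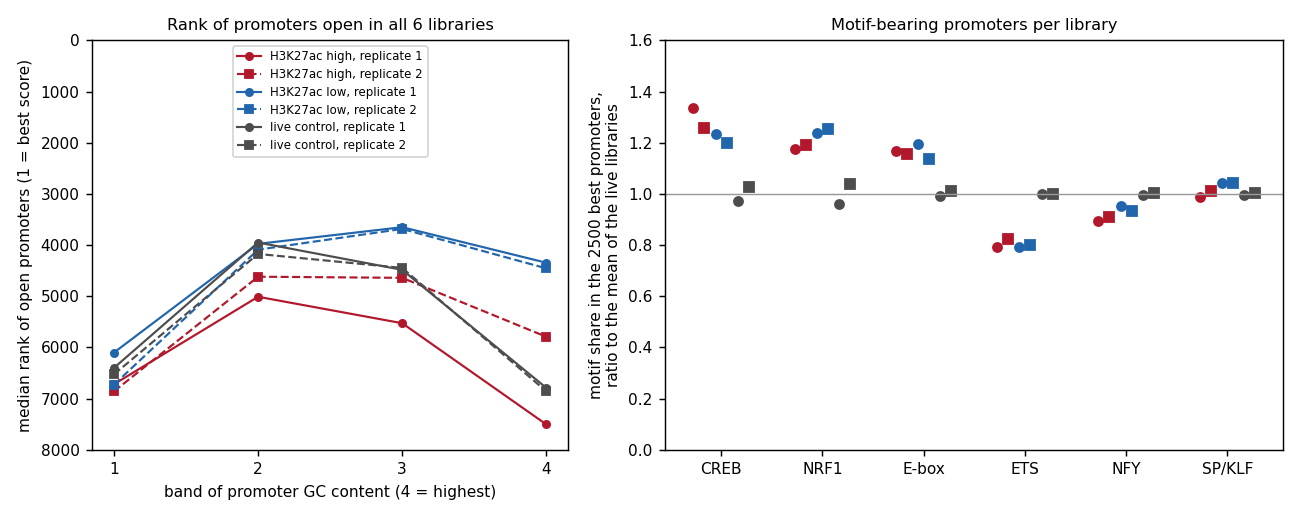
Left, median rank (rank 1 at the top) of promoters open in all 6 libraries, by band of promoter GC content. Right, share of each library's 2500 best promoters that hold a motif, divided by the mean of the 2 live libraries. In the richest band the low libraries sit at 4345 and 4455 and the live at 6791 and 6858, and the CREB, NRF1 and E-box points of all 4 sorted libraries lie above the live ones, with ETS and NFY below.

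The same motifs divided the promoters called by rank. CREB sites were in 6.02% of the sorted-favoured and 1.91% of the live-favoured promoters, NRF1 sites in 3.92% and 1.6%, and the E-box in 13.7% and 7.94%. ETS sites were in 8.82% and 14.5% and NFY sites in 34.2% and 46%. The same leanings appeared within ranges of GC content. Among the 2 GC-richer bands, 27.8% of 205 open promoters with a CREB site were higher in sorted and 5.37% higher in live, against 18% and 13.4% of those without. Among the 2 GC-poorer bands the shares were 24.8% and 12% of 117 with a site, and 14.1% and 19.6% without. ETS sites went with live calls on both sides too, at 18.6% against 12.5% higher in live in the richer and 23.8% against 18.7% in the poorer bands. The E-box split the richer bands (23.2% against 17.7% higher in sorted) more than the poorer (16.7% against 14.3%), a difference that was not tested.

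Summits at gene starts were more often upstream of the start in the sorted libraries. At 6487 starts whose region was among the best of all 6 libraries, the best summit was upstream of the start in 75.6% and 79.1% (high), 78.1% and 79.9% (low) and 73.7% and 72.5% (live). All 4 sorted values lay above both live ones, by 5.1 points on average (78.2% ± 1.85, SD, n = 4, and 73.1% ± 0.828, SD, n = 2; exact permutation test, p = 0.0667, adjusted over 4 summit measures 0.133). Like the signed position, it was chosen with the data already seen. The median position was -81, -81, -79 and -80 bp in the sorted and -75 and -74 bp in the live libraries, where negative is upstream. The 75th percentile of position lay at -4, -18, -14 and -20 bp in the sorted and at 7 and 9 bp in the live libraries, past the start. The 10th percentile leaned the other way, at -247, -234, -226 and -230 bp in sorted and -254 and -257 bp in live libraries. The 25th percentile overlapped, at -146 to -135 bp and -138 bp. The median unsigned distance was 108, 101, 100 and 98 bp against 100 and 99 bp (exact permutation test, p = 0.733). The whole distribution thus did not move upstream. Without high replicate 1 the shares differed by 6.04 points (exact p = 0.1, the smallest that 3 against 2 allow).

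**Figure D5:**
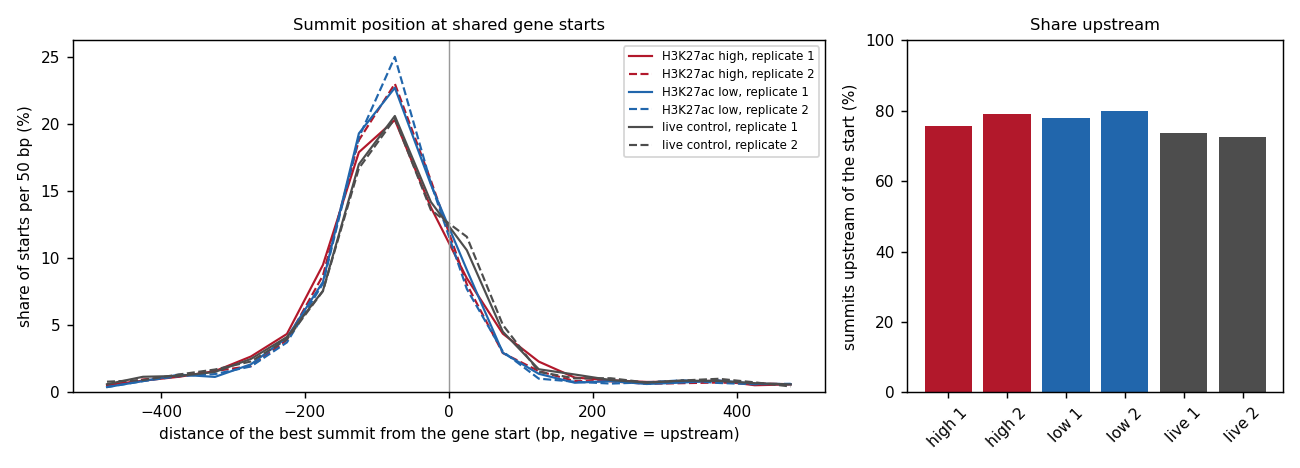
Left, share (%) of 6487 shared gene starts by the distance of each library's best summit from the start, in bins of 50 bp. Right, share (%) of those summits lying upstream, per library: 75.6% to 79.9% in the 4 sorted and 73.7% and 72.5% in the 2 live libraries.

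Summit positions lay closer within a preparation on average. At these starts the summits of 2 libraries of the same group lay a median of 29.1 bp apart on average, and those of libraries of different groups 33.6 bp (exact permutation test, p = 0.0667). Summits over 150 bp apart, about the length of a nucleosome's DNA, made up 6.05% of starts within groups and 8.61% across them (exact p = 0.0667). Neither distance measure was planned. The closest pairs were the 2 low libraries, at 23 bp, and the 2 live libraries and the pair of high replicate 2 and low replicate 2, at 25 bp. Pairs holding high replicate 1 lay 35 to 41 bp apart, and all other pairs 23 to 33 bp.

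Regions with more than 1 summit were fewer in the sorted libraries, at 4.78% and 9.36% (high), 7.76% and 9.09% (low) and 9.73% and 9.53% (live). No sorted value reached a live one, and the difference was -1.88 points (exact permutation test, p = 0.267). It was -0.894 points without high replicate 1 (exact permutation test, p = 0.2), and with summits chained within 250 or 500 bp it turned to 0.0758 and 0.242 points. List length before trimming also differed between the groups, and its part in this was not tested.

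By chromosome, the shares of best regions differed little. Of 22 chromosomes, 3 (13.6%) had a larger share in all 4 sorted than in both live libraries and 3 (13.6%) a smaller one. Chromosome 1 held 9.24%, 9.26%, 9.37% and 9.48% of the sorted and 9.85% and 9.76% of the live best regions, all sorted values below (-0.467 points, exact permutation p = 0.0667, adjusted over 22 chromosomes 0.489). The other large differences of means were on chromosome 17 (-0.547 points) and chromosome 22 (-0.315), and on chromosomes 4 (0.473), 8 (0.342) and 5 (0.313). On chromosome 17 the high libraries lay at 3.07% and 3.51%, the low at 4.07% and 4.33% and the live at 4.34% and 4.25%, so low and live overlapped. On chromosome 4 high replicate 1, at 6.21%, stood above 5.57%, 5.58% and 5.11% in the other sorted and 5.15% and 5.14% in the live libraries. Chromosome 8 held 5.38%, 4.96%, 4.86% and 4.74% against 4.67% and 4.61%, without overlap. Without high replicate 1 the differences were -0.434 points on chromosome 1, -0.32 on 17, -0.193 on 22, 0.277 on 4, 0.21 on 8 and 0.182 on 5.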

How the data were processed

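The 6 libraries were analysed from the summit lists that the authors deposited, called per library. Per the submitters' processing notes the tools were bcl2fastq, FastQC, Bowtie2, Picard and MACS2, and both hg38 and hg19 are named; the contig names in the lists are those of hg38, and no label or header states settings or versions. Each deposited summit carries the authors' score, a −log10 of a p or q value (which of them is not given), used only to rank a library's own regions. The lowest scores lay between 2.02 and 2.31, and read depth is unknown.

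Summits on chromosomes 1 to 22 were chained within 1000 bp over all libraries, and each library's best 23621 regions were kept. Places were taken from RefSeq protein-coding genes (GRCh38.p14). Groups came from the sample titles. Group means were compared by a two-sided exact permutation test with Benjamini-Hochberg adjustment within each family; regions, genes and lists were counted without a test. The members and lists were chosen with earlier results of these data known. Named sites were, per direction, the 8 regions at gene ends and the 8 others with the widest gap between the favoured group's worst rank and the other group's best, 1 per nearest gene within 100 kb; up to 3 called members of each list per direction; and 3 chromosomes per direction. The 20 lists had 401 entries, of which 399 matched. The 13 motifs were searched in promoters of 250 bases before to 50 after the start.

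Alternatives varied list length, the score minimum, chaining, the gene-end window, each sorted group alone, each library left out and the replicate numbers as a block. Ranks showed little pairing by replicate number (correlations of deviations between same-numbered libraries of 0.072, 0.00881 and -0.000197 over 14484 regions). Such correlations cannot tell whether the samples were handled in pairs. Scripts were tested on simulated data and used Python 3.11.15, numpy 2.4.6, pandas 2.3.3, scipy 1.17.1 and matplotlib 3.10.9. Chromosomes X and Y, other contigs and the viral genome were left out of the comparisons.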

Additional observations from a re-analysis of the deposited data

Results flagged for a closer look

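In 6 measures both high libraries lay beyond both live libraries on one side and both low libraries on the other; the difference between the sorted groups was not tested, and both comparisons use the same 2 live libraries. The share of regions at gene ends was -2.12 points from live in the high and 0.559 points in the low libraries. The share of regions on chromosome 19 was -0.84 points from live in the high and 0.262 in the low libraries. Mean promoter GC content was -0.108 points from live in the high and 0.155 in the low libraries. The share of promoters that were open in the third GC band was -3.19 points from live in the high and 0.654 in the low libraries, and in the richest band -4.12 and 2.41 points. The median rank of promoters in the third band was 618 places further down than live in the high libraries and -798 places from it, that is, nearer the top, in the low libraries.

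Among the 4 sorted libraries, the share of the best promoters with an ETS motif was 10.8% in high replicate 2, set apart from the other sorted values; about 1 in 20 groups of samples shows such a gap by chance.

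Summits outside chromosomes 1 to 22, which no comparison used, made up 3.71% and 3.46% of the high and 3.55% and 3.36% of the low lists, each above the 3.25% and 3.3% of the live lists. Chromosome X made up 3.43%, 3.3%, 3.33% and 3.17% of the sorted and 3.14% and 3.19% of the live lists. The Epstein-Barr virus genome held 11, 10, 15 and 18 summits in the sorted and 16 and 17 in the live lists.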

How the results depend on the processing

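List length, the choice of sorted group and high replicate 1 moved the place results. The gene-end difference of -0.782 points became 0.591 with 11810 best regions, 1.19 with 10000, 4.86 with 2500, 8.04 with full lists and 0.559 with the low libraries alone, and ran from -1.24 to 0.0141 with single libraries left out. The 1 to 5 kb difference became 0.387, 0.365 and 0.5 at those 3 lengths, 0.0248 with scores of at least 5 and 0.0741 with the low libraries alone (left out: -0.288 to 0.0141). The difference deep inside genes became -0.838, -1.21, -3.36, -2.89 with full lists and -0.112 with the low libraries alone. The difference 5 to 100 kb from genes kept its sign, between -2.34 and -0.405, but the groups overlapped with 10000 and with 2500 regions. The share over 100 kb from genes turned to -0.58 with 2500 regions and -1.72 with full lists, and the shared-region difference to -3490 with full lists. The gene-end share of called regions turned to -10.8 with the high libraries alone. Mean GC content turned to -0.00552 with chaining within 250 bp, -0.108 with the high libraries alone and -0.00948 without the shortest list and with lists lengthened (left out: -0.0262 to 0.0964).

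Counts moved with list length and with the number of libraries that had to agree, and lengthened lists changed both at once. Regions higher in sorted, 3275, became 1857 with 11810 regions, 1616 with 10000, 6322 and 7071 with high or low libraries alone and 6823 with lists lengthened (left out: 3960 to 4919). Regions higher in live, 4288, became 2460, 2150, 6942, 7108 and 8170 in the same settings and 13557 with full lists (left out: 5007 to 8321). Sorted-only regions, 474, became 21 with full lists, 1285 and 1391 with one sorted group, 974 lengthened and 3 absent from full lists of the other group (left out: 638 to 963). Live-only regions, 692, became 434 with 10000, 7491, 1604, 1321, 1449 and 29 (left out: 889 to 1921). Genes higher in sorted became 3828 with the low libraries alone and 2762 lengthened (left out: 1858 to 2628), and genes higher in live 3188 with the high libraries alone (left out: 1785 to 2666). Chromosomes higher in sorted became 0 with 11810 regions, 1 with 10000 and 10 with the high libraries alone (left out: 3 to 9), and lower ones 8 (left out: 3 to 7).

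Smaller measures also turned. Open shares turned to 0.0591 (10000) and 0.171 (low alone) in the lowest GC band, 0.0896 and 0.654 (low alone) in the second and the third, and 3.63 (11810), 4.46 (10000) and 2.41 (low alone) in the richest (left out: -2.02 to 1.03). Median rank differences turned to -9.25 (window 2500 bp), -20 (low alone) and -83.2 (lengthened) in the lowest band (left out: -10 to 272), -98 (low alone) in the second and 624 (high alone) in the third (left out: -438 to 148). The unsigned distance to the start turned to -1 (low alone) and -1.67 (lengthened) (left out: -0.667 to 3.5), regions with more than 1 summit to 0.0758 and 0.242 (chaining within 250 and 500 bp), the YY1 motif to 0.08 (low alone) and the TATA box to 0.015 (best 5000 promoters). The cause was not tested in any of these.

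With the replicate numbers as a replicate block the differences were as before, with exact permutation p of 0.778 for gene ends, 0.111 for sites 5 to 100 kb from genes, 0.111 for upstream summits and 0.778 for shared regions, the smallest possible being 0.111; no direction changed. The lists of 2500 regions, those lengthened without high replicate 1, the motif and signed-summit measures and 5000 promoters were chosen after seeing the data. Median ranks by GC band, distances between the summits of paired libraries, divergent starts and gene counts within 500 kb were not planned either. Without read depth or more live libraries, a site missing from a list cannot be told from one just under its threshold.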

Other observations

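Some genes had several called regions around them, counted by nearest gene. They were chosen after their values were seen, from the genes with the most called regions. Over all 36380 regions, 9.0% were higher in sorted and 11.8% higher in live. Regions higher in sorted numbered 6 of 22 at HIVEP2, a zinc finger gene, 5 of 16 at ARID1B, a subunit of the BAF remodelling complex, 4 of 10 at IKZF1, which encodes the lymphoid factor Ikaros, and 3 of 5 at BCL6, the germinal centre repressor. Near S1PR1, 4 of 9 regions were higher in sorted. Regions higher in live numbered 5 of 9 at NIBAN1, 4 of 12 at ZBTB38, a reader of methylated DNA, 3 of 4 at HLA-DPB1 and 3 of 4 at CARD8, an inflammasome sensor. At ARID1B and at ZBTB38, 1 region was called the other way.

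Of the 22 chromosomes, called regions leaned most to live on chromosomes 22, 17, 15 and 19. On chromosome 22, 5.67% of regions were higher in sorted and 18.6% higher in live, on chromosome 17 6.14% and 16.9%, on chromosome 15 6.15% and 15.9%, and on chromosome 19 7.81% and 15.6%. On chromosome 4 the shares were 10.2% and 8.58%, and on chromosome 8 10.9% and 8.6%, both leaning to sorted. A call higher in sorted needs 4 libraries in the best list and a call higher in live only 2. By share of best regions, the low libraries lay above live on chromosome 19 (4.42% and 4.66% against 4.37% and 4.18%). The high libraries lay below, at 3.15% and 3.73%. On chromosomes 22 and 17 low and live overlapped, and on chromosome 15 all 4 sorted values lay below both live ones.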
